A study of Mus musculus with 10 samples.

Results

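Long intergenic transcripts are RNAs copied from stretches of the genome that lie between the known protein-coding genes. They were read here by array probes whose target is a genomic interval and a strand rather than a gene, so that chrX:123306246-123307974_F stands for positions 123306246 to 123307974 of chromosome X in the mm9 assembly of the mouse genome, forward strand (R is the reverse strand). The array held 16181 probes for 4607 such names, among 55681 probes in all. Regions were chosen by their signal: a name was kept when at least 1 of its probes was well above background, as the scanner software flags it, on every array of at least 1 group of cells. This left 3225 regions, read by 7301 probes, among 23799 features tested, where a feature is a region or a gene. Each region is represented below by its brightest probe. Because detection chose the regions, whether a region is detected is described here and not tested.

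The cells were mouse embryonic stem cells, pluripotent cells grown from the early embryo, and the study asked how gene expression responds when DNA methylation is lowered by excess PRDM14. RNA from 6 groups was hybridised to 10 one-colour arrays. Cells were kept without feeder cells, in serum and the cytokine LIF. J1 is the wild-type line (2 arrays). PRDM14 is line JP-23, wild-type cells that stably express Prdm14 (2 arrays), and PRDM14_DNMT3B is line JP-23+3b-3, which stably expresses Prdm14 and Dnmt3b1 (2 arrays). Dnmt3b_KO is the Dnmt3b-/- line 8bb (2 arrays), Dnmt1_KO the Dnmt1-/- line 36 (1 array) and TKO the line 19-1 that lacks Dnmt1, Dnmt3a and Dnmt3b (1 array). Each group is a single line, so a difference between groups is a difference between lines. Nothing in the labels ties the replicates to separate cultures. The p-values below therefore rest on array-to-array spread that may be technical only.

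DNA methyltransferases add methyl groups to cytosines that are followed by guanine. Dnmt1 copies methylation to the new strand after replication, whereas Dnmt3a and Dnmt3b set new methylation, and methylated promoters of imprinted genes, germline genes and endogenous retroviruses are usually silent. PRDM14 is a DNA-binding regulator of pluripotent and germ cells that is known to repress the de novo methyltransferases. Long noncoding RNAs are often expressed at low levels and in few cell types, and some are copied from the strand opposite to a gene or from the flank of one.

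The probes that carry the main findings are shown first, as deposited, 5′ to 3′, each with its own position and strand in mm9. Capitals mark CG, the dinucleotide that DNA methyltransferases modify. The first is from the region with the largest rise in the PRDM14 line. The next 2 are from regions that fell furthest there, the fourth from an imprinted cluster on chromosome 12, and the last 2 from regions that differed most between the PRDM14 lines in the upward direction.
chrX:123306246-123307974_F, probe at chrX:123306595-123306654, plus strand: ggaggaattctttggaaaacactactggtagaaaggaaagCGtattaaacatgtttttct
chr4:129380903-129390686_R, probe at chr4:129381000-129381059, minus strand: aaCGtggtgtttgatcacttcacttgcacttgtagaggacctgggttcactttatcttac
chr1:52706748-52712402_R, probe at chr1:52706770-52706829, minus strand: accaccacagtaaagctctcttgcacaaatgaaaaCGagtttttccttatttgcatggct
chr12:110842154-110883594_F, probe at chr12:110865304-110865363, plus strand: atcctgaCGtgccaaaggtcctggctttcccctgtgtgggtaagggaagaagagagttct
chr9:118291593-118324230_F, probe at chr9:118314102-118314161, plus strand: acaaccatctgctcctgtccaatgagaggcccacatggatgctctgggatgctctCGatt
chr11:96111499-96126224_R, probe at chr11:96114981-96115040, minus strand: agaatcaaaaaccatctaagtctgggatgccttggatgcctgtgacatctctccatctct

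A pair of probes on chromosome 5 and a pair on chromosome 4 are shown because the members of each pair overlap in sequence, so that an RNA matching one can bind the other and the members of a pair are not independent. Here capitals mark the longest stretch that both probes of the pair share, 41 bases in the first pair and 15 bases in the second.
chr5:14943275-14944205_F, probe at chr5:14943980-14944039, plus strand: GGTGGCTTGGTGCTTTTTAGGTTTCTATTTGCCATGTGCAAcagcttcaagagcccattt
chr5:15146475-15170100_F, probe at chr5:15168385-15168444, plus strand: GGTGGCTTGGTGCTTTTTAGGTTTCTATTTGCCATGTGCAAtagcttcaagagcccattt
chr4:146889650-146904300_F, probe at chr4:146892846-146892905, plus strand: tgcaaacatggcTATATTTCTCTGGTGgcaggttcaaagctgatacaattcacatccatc
chr4:146965675-146979325_F, probe at chr4:146968056-146968115, plus strand: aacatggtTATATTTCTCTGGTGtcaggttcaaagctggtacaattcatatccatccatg

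Of the 3225 regions, 117 had a probe that shared a stretch of at least 25 bases with the probe of another region. The probes of the regions were 46.3% ± 8.5 G and C (SD over 3225 probes) against 42.6% ± 7.0 for the other features, and 52.0% of them held a CG against 51.0%. Regions spanned 62 to 533972 bp, with a median of 11686 bp, and were spread evenly over the strands, 1618 on F and 1607 on R. A named gene lay within 50 kb of 2189 regions and inside 387, by the positions of the array's own gene probes. No annotation of mm9 was used, so exons and introns are not given.

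Levels are given as log2 of the background-corrected signal minus the 75th percentile of its array, so that 0 is the level of a spot brighter than 75% of the others. They rank arrays for one probe but not probes against each other. Between 32.57% and 41.75% of the region probes were well above background on an array, against 56.58% to 61.39% of the other spots, so fewer of the region probes were detected. Over the 2116 regions above background on all 10 arrays, replicates correlated at 0.9867 to 0.9928 across regions, and the median absolute difference between replicates was 0.157 to 0.241, against 0.109 to 0.153 for the other features. J1 replicate 1 read higher than J1 replicate 2 for the regions (median difference 0.18), as did replicate 1 of PRDM14_DNMT3B (0.17) and of Dnmt3b_KO (0.16). J1, PRDM14_DNMT3B and Dnmt3b_KO had replicate 1 on slide 1 and replicate 2 on slide 2, Dnmt1_KO and TKO were on slide 1, and the PRDM14 arrays were alone on slides 3 and 4, so for PRDM14 slide and group cannot be told apart.

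All 10 markers of embryonic stem cells were above background on every array. Of 8 fibroblast markers 6 were above background on each J1 and knockout array but 4 on both PRDM14 arrays and 5 and 4 on those of PRDM14_DNMT3B, where Dcn was not, and Lum and Postn were above it on no array. Of 5 primitive endoderm markers 3 and 1 were above background in J1, 1 and 2 in PRDM14, 1 and 1 in PRDM14_DNMT3B, 2 and 3 in Dnmt3b_KO, 4 in Dnmt1_KO and 5 in TKO, and of 5 trophoblast markers 4 were on every array but that of TKO, with 3. The part of these cells in the results was not tested. The Dnmt1 probe fell by 4.14 in Dnmt1_KO and by 4.61 in TKO against J1, and Dnmt3b fell by 5.93 in Dnmt3b_KO. Dnmt3a was not above background in TKO. The Prdm14 probe went against the label, at -4.31 and -4.02 on the PRDM14 arrays against -0.07 and 0.09 in J1, and Dnmt3b was no higher in PRDM14_DNMT3B (4.10 and 4.17) than in PRDM14 (5.0 and 5.05). No source used here says whether these probes match the introduced genes. Groups are called by their labels, and the added expression itself was not measured.

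Detection varied with the group. On all arrays of a group, 2395 regions were above background in J1, 2849 in PRDM14, 2388 in PRDM14_DNMT3B and 2473 in Dnmt3b_KO. Dnmt1_KO (2744) and TKO (2785) had 1 array each and pass such a rule more easily. By the probe tested, 2116 regions were detected in all 6 groups and 387 in 1 group. Of the other features tested, 16121 were detected in all 6 groups and 1460 in 1 group. Just inside the rule, the 357 regions with a probe detected in exactly 1 group reached a median highest level of -3.29 on any array. Just outside it, the 90 names above background on several arrays but never on all arrays of a group reached -3.41 and the 377 above it on 1 array -3.38, so signal was similar on both sides of the rule's edge. The other 915 names outside the rule were above background on no array.

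Excess PRDM14 was compared with wild type first. In PRDM14 against J1, 457 regions rose (14.2%, where 20.8% of all features rose) and 404 fell (12.5%, where 18.8% of all features fell), by limma with a Benjamini-Hochberg adjusted p under 0.05. The regions' median difference was -0.083 against -0.031 for all features. A region detected through the PRDM14 arrays alone had to differ, so the model was also fitted to only those probes above background on all 10 arrays, which left 2128 regions: 343 rose and 391 fell, together 34.5% against 46.7% of all features in that set. The shares called in each comparison and direction are plotted beside those of all features.

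**Figure D1:**
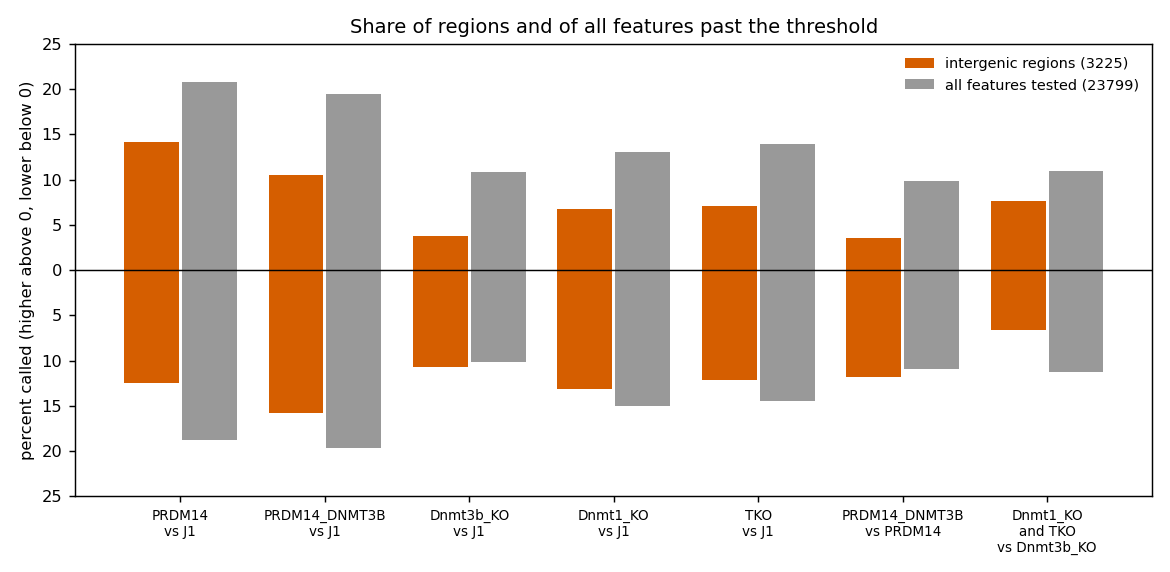
Percent of the 3225 intergenic regions (orange) and of all 23799 features tested (grey) past the threshold in each of 7 comparisons, higher above 0 and lower below 0. The regions were called less often than all features in both directions of most comparisons, as in PRDM14 against J1 (14.2% against 20.8% higher), while in Dnmt3b_KO the shares of lower calls were 10.7% and 10.1%.

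The region with the largest rise, chrX:123306246-123307974_F, was not above background on any array of J1 (-4.58 and -6.02) or Dnmt3b_KO (-6.21 and -5.58). It read 2.20 and 2.55 in PRDM14, 0.76 and 0.89 in PRDM14_DNMT3B, -0.29 in Dnmt1_KO and -0.14 in TKO. J1 and Dnmt3b_KO overlapped, and PRDM14 stood above all other groups. With J1 at the limit of detection the rise was at least 88.8-fold in PRDM14 (limma adjusted p = 0.000167) and at least 30.4-fold in PRDM14_DNMT3B (limma adjusted p = 0.000358). It was at least 14-fold in Dnmt1_KO and at least 15.6-fold in TKO (limma adjusted p = 0.00339 and 0.00276). All 3 probes of the region rose in PRDM14, by 3.68 to 7.67. In TKO the 3 probes did not go the same way (-0.14 to 5.16).

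A pair of regions on the same strand just upstream, chosen after their values were seen, were likewise highest in PRDM14 and next highest in PRDM14_DNMT3B by group mean. The nearer one, chrX:123303474-123305531_F, read -0.30 and 0.24 in PRDM14, -1.12 and -0.94 in PRDM14_DNMT3B, -2.46 in Dnmt1_KO and -2.29 in TKO. It was not above background in J1 or Dnmt3b_KO, and its rise in PRDM14 was at least 16.8-fold (limma adjusted p = 4.59e-05). The farther one, chrX:123295327-123300036_F, rose at least 9.57-fold in PRDM14 and at least 3.88-fold in PRDM14_DNMT3B (limma adjusted p = 0.000159 and 0.000397). No named gene of the array lay within 100 kb of these 3 regions.

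On chromosome 1, chr1:87343550-87362900_F read -3.69 and -3.63 in J1, 0.87 and 0.90 in PRDM14, and 0.97 on both PRDM14_DNMT3B arrays. Dnmt1_KO (-2.21) and TKO (-2.50) lay between, and Dnmt3b_KO was below background. The rise was 23.3-fold in PRDM14 (4.54 ± 0.17, SE, limma adjusted p = 4.03e-05) and 24.7-fold in PRDM14_DNMT3B (limma adjusted p = 4.35e-05). A second probe of the region rose by 2.85 in PRDM14 but by 0.42 in PRDM14_DNMT3B. The reverse strand of the same interval, chr1:87343550-87362900_R, was above background in Dnmt1_KO (-2.36) and in no other group. This is a description only, since that array alone brought it into the test. The forward strand was higher in Dnmt1_KO than in J1 as well, by 1.44.

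Also on chromosome 1, chr1:85117750-85129200_F read -3.26 and -4.24 in J1 and between 0.32 and 0.42 on the 4 arrays of the PRDM14 lines. J1 was above background on 1 of its 2 arrays, so the size of the rise is less certain. The region rose 16.9-fold in PRDM14 and 17.9-fold in PRDM14_DNMT3B (limma adjusted p = 0.000294 and 0.000282). Dnmt3b_KO, Dnmt1_KO and TKO stayed at -4.28 to -2.75.

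On chromosome 5, regions that rose lie near Speer genes, a rodent family expressed in spermatogenic cells. The longest, chr5:14923900-15062725_F, read -3.45 and -3.29 in J1, 0.88 and 0.75 in PRDM14, -0.48 and -0.50 in PRDM14_DNMT3B, -1.59 in Dnmt1_KO and -2.20 in TKO. It rose 18.2-fold in PRDM14 (4.18 ± 0.22, SE, limma adjusted p = 9.53e-05), and PRDM14_DNMT3B was lower than PRDM14 by a log2 difference of -1.30 (limma adjusted p = 0.0124). The pair that shares 41 bases followed: chr5:14943275-14944205_F read -0.52 and -0.44 in PRDM14 against -3.26 and -3.69 in PRDM14_DNMT3B, and chr5:15146475-15170100_F read -0.49 and -0.57 against -3.34 and -3.24. Both were below background in J1, and their rises in PRDM14 were at least 12.3-fold and at least 11.9-fold. The first of the pair lies inside the longest region on the same strand, so these regions are not independent readings.

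Among the regions that fell, chr4:129380903-129390686_R read 0.76 and 0.69 in J1, -2.98 and -2.79 in PRDM14 and -3.28 and -3.68 in PRDM14_DNMT3B. Dnmt3b_KO (0.22 and 0.23) stayed near J1, Dnmt1_KO read -0.21 and TKO -1.89. The fall was 12.2-fold in PRDM14 (-3.61 ± 0.15, SE, limma adjusted p = 5.32e-05) and 18.4-fold in PRDM14_DNMT3B (limma adjusted p = 4.33e-05), and all 3 probes fell by 3.61 or more in PRDM14. The region begins 1476 bp from the probe of Khdrbs1, an RNA-binding protein gene on the same strand, which fell by 1.18 in PRDM14 and by 1.08 in PRDM14_DNMT3B (limma adjusted p = 0.000321 and 0.000448).

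The region chr1:52706748-52712402_R moved in opposite directions in different groups. J1 read -1.22 and -1.19, Dnmt1_KO 1.83 and TKO 0.67. It was not above background on any array of PRDM14 (-6.69 and -6.83), PRDM14_DNMT3B (-5.00 and -4.65) or Dnmt3b_KO (-5.49 and -5.64). Against J1 it fell at least 10.4-fold in PRDM14, at least 7.26-fold in PRDM14_DNMT3B and at least 8.46-fold in Dnmt3b_KO (limma adjusted p = 1.97e-05, 5.19e-05 and 0.000205). It rose by 3.04 in Dnmt1_KO and by 1.87 in TKO (limma adjusted p = 0.000394 and 0.00141). Of its 5 probes 1 passed the detection filter, so no second probe checks this pattern. Nemp2, a nuclear envelope protein gene that has its probe inside the interval on the other strand, read -1.73 to -0.76 over all 10 arrays and differed from J1 in Dnmt3b_KO, by 0.71 (limma adjusted p = 0.0446), where the region fell.

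The large region chr13:28551902-28975446_R, 65380 bp from Sox4, a transcription factor gene of progenitor cells, read -0.63 and -0.67 in J1, -3.38 and -4.27 in PRDM14 and -3.36 and -3.40 in PRDM14_DNMT3B. It fell 9.01-fold in PRDM14 (limma adjusted p = 0.000504). Sox4 itself fell by 3.49 in PRDM14 and by 1.40 in PRDM14_DNMT3B (limma adjusted p = 4.54e-05 and 0.000801). On chromosome 6, chr6:34548561-34612216_F fell at least 7.99-fold in PRDM14 and at least 5.59-fold in PRDM14_DNMT3B but rose by 1.06 in Dnmt3b_KO (limma adjusted p = 0.000295, 0.000396 and 0.0416).

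**Figure D2:**
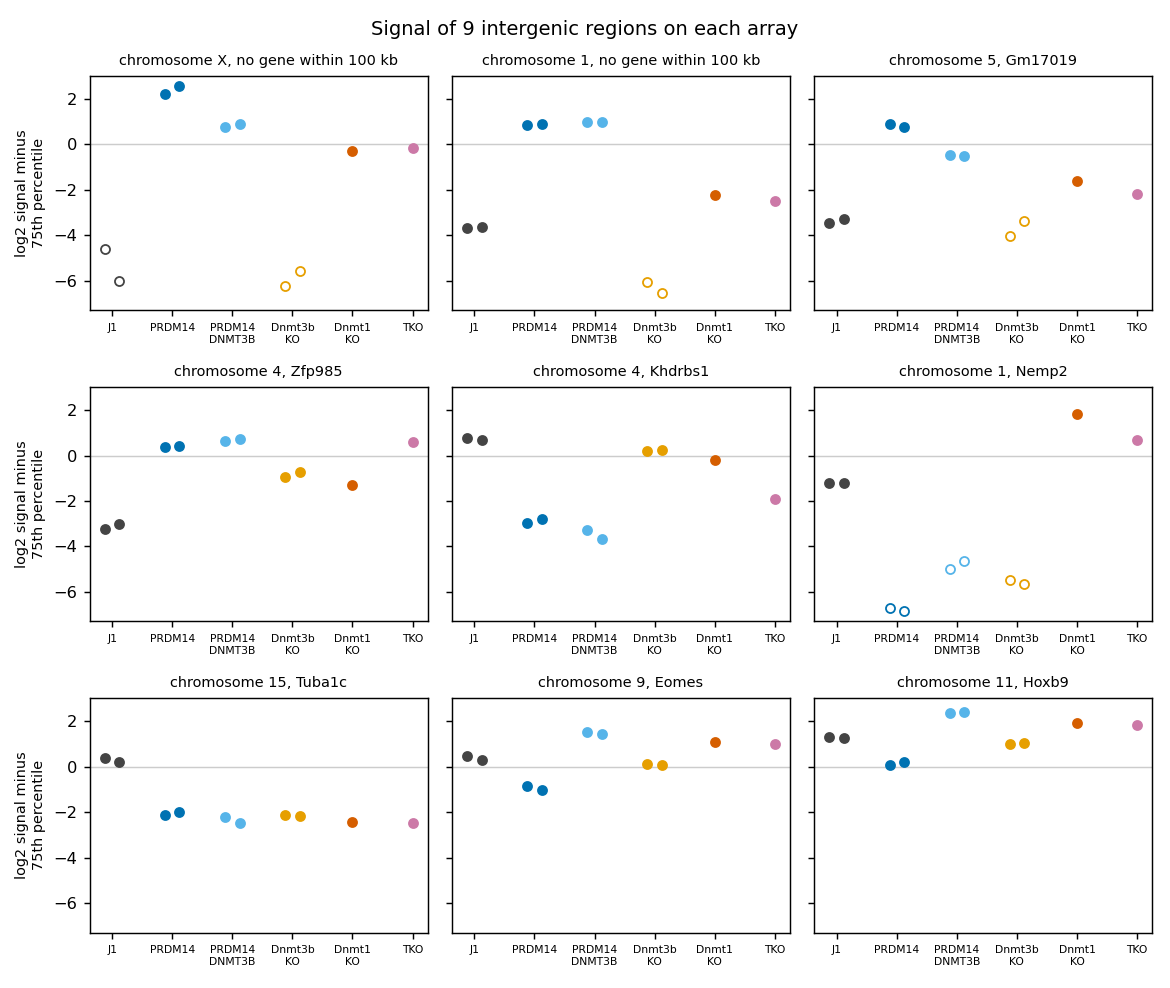
Level of 9 named regions, as log2 signal relative to each array's 75th percentile, on each of 10 arrays, 1 point an array, coloured by group. Panels are titled by chromosome and nearest named gene, and open points mark groups in which the region was not above background on all arrays. The chromosome X region reached 2.20 and 2.55 in PRDM14 while J1 and Dnmt3b_KO stayed below background.

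The 457 rises and 404 falls in PRDM14 came to 861 calls, which dropped to 543 without PRDM14 replicate 1 and to 535 without PRDM14 replicate 2. The lower numbers count regions alone, without the share of all features called under the same setting. The PRDM14 arrays share no slide with another group, and the part of slide in these values was not tested.

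With Dnmt3b1 added, the comparison with wild type gave fewer rises and more falls. In PRDM14_DNMT3B against J1, 339 regions rose (10.5%, where 19.5% of all features rose) and 508 fell (15.8%, where 19.7% fell), by limma with adjusted p under 0.05. The median difference of the regions was -0.136 against -0.065 for all features, and within slides 1 and 2 it was -0.151 and -0.148. The leading rises were on chromosomes X and 1, described above, and on chromosome 4.

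On chromosome 4, chr4:146965675-146979325_F was lowest in J1 (-3.22 and -3.00). It read 0.65 and 0.73 in PRDM14_DNMT3B, 0.37 and 0.41 in PRDM14, 0.59 in TKO, -0.95 and -0.72 in Dnmt3b_KO and -1.28 in Dnmt1_KO. The rise was 13.9-fold in PRDM14_DNMT3B and 4.84-fold in Dnmt3b_KO (limma adjusted p = 3.47e-05 and 0.000773), and it was called in all 5 comparisons with J1. Its partner in sequence, chr4:146889650-146904300_F, read -1.99 and -2.30 in J1 and between -0.41 and 1.55 elsewhere, and was likewise called higher in all 5. The zinc finger genes beside them, Zfp985 and Gm13141, were called in none of the 5: they read 3.82 to 4.58 and 4.76 to 5.31 over all arrays.

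Regions beside Morrbid, a long noncoding RNA known to restrain expression of its neighbour Bcl2l11, fell. Of these, chr2:128137419-128141735_R read -0.36 and -0.56 in J1, -2.01 and -1.95 in PRDM14, -3.33 and -3.74 in PRDM14_DNMT3B, -1.36 and -1.30 in Dnmt3b_KO, -1.76 in Dnmt1_KO and -3.12 in TKO. It was lower than J1 in all 5 groups, by 8.44-fold in PRDM14_DNMT3B (limma adjusted p = 9.33e-05) and 6.31-fold in TKO (limma adjusted p = 0.000741). The region that holds the Morrbid probe, chr2:128142035-128142481_R, chosen after its values were seen, read -1.76 and -1.84 in J1 and was not above background in either PRDM14 line or in TKO, with a fall of at least 6.88-fold in PRDM14 (limma adjusted p = 7.37e-05). Morrbid fell at least 5.74-fold there (limma adjusted p = 0.000967). In Dnmt3b_KO that region read -1.48 and -1.57 and was not called.

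On the same chromosome, chr2:104398943-104412968_F read -0.12 and -0.38 in J1 and fell 7.82-fold in PRDM14_DNMT3B, to -3.01 and -3.42 (limma adjusted p = 0.000127).

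The direct comparison of the 2 lines that express Prdm14 asked what Dnmt3b1 changed. In PRDM14_DNMT3B against PRDM14, 115 regions were higher (3.6%, where 9.81% of all features were) and 381 were lower (11.8%, where 10.9% of all features were), by limma with adjusted p under 0.05. The PRDM14 arrays were also those with most region probes above background (41.11% and 41.75%, against 35.20% and 33.57% in PRDM14_DNMT3B), and the part of that in the lower calls was not tested. In the separate fit to probes above background on all 10 arrays, 138 were higher and 338 lower, together 22.4% against 28% of all features.

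Of the regions higher in PRDM14_DNMT3B, chr9:118291593-118324230_F read 1.51 and 1.43 there, -0.83 and -1.01 in PRDM14, and 0.46 and 0.30 in J1. The log2 difference between the PRDM14 lines was 2.39 ± 0.11 (SE, limma adjusted p = 0.000618), and each of the lines lay on another side of J1. The nearest named gene, Eomes, a T-box factor of mesendoderm and trophoblast, is 70195 bp away. It was higher in PRDM14_DNMT3B than in PRDM14 by 0.54 (limma adjusted p = 0.0113) but lower than J1 in both lines, by 1.11 and 1.64 as falls on the log2 scale. Of the 6 probes of that region 1 passed the filter.

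In the Hoxb cluster, chr11:96111499-96126224_R read 2.38 and 2.39 in PRDM14_DNMT3B, 0.08 and 0.19 in PRDM14 and 1.30 and 1.25 in J1, a difference of 2.25 ± 0.08 between the PRDM14 lines (SE, limma adjusted p = 0.000439). Dnmt1_KO (1.94) and TKO (1.84) were above J1 as well. Its second probe that passed rose by 0.38. Hoxb9, a patterning gene 11524 bp away on the opposite strand, was at least 3.90-fold higher in PRDM14_DNMT3B than in PRDM14 (limma adjusted p = 0.00279).

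On chromosome 3, chr3:95502970-95503399_R was higher by 2.20 in PRDM14_DNMT3B than in PRDM14 (limma adjusted p = 0.00217), at 1.10 and 0.74 against -1.47 and -1.08. Beside Nab1, a corepressor of EGR factors, chr1:52507332-52514490_R read 2.02 and 2.21 in J1, -0.87 and -0.46 in PRDM14 and 1.31 and 1.41 in PRDM14_DNMT3B. This region fell by 2.79 in PRDM14 and was higher by 2.03 in PRDM14_DNMT3B than in PRDM14 (limma adjusted p = 0.000116 and 0.00127). Nab1, 642 bp away on the same strand, fell by 2.80 and was higher by 1.92 in the same comparisons (limma adjusted p = 0.000146 and 0.00178), nearly the same differences as those of the region.

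Of the regions lower in PRDM14_DNMT3B than in PRDM14, the pair on chromosome 5 differed most: chr5:14943275-14944205_F by 7.96-fold and chr5:15146475-15170100_F by 6.77-fold (limma adjusted p = 0.00776 and 0.0108). Next, chr8:41730287-41746862_F read -1.65 and -1.74 in PRDM14 and -4.29 and -3.99 in PRDM14_DNMT3B, a description since it entered the test through PRDM14 alone. The region chr3:35590823-35631823_F read -1.15 and -1.25 against -3.18 and -3.44 (limma adjusted p = 0.00319). The calls of the chromosome 5 pair did not hold without PRDM14 replicate 1 (limma adjusted p = 0.0514 and 0.0672) nor without PRDM14 replicate 2 (0.0521 and 0.0613), and that of chr5:15146475-15170100_F also not without PRDM14_DNMT3B replicate 1 (0.0529) or replicate 2 (0.0504). Fewer than the 496 regions were called without either PRDM14 array or without PRDM14_DNMT3B replicate 2. The share of all features called in those fits is not given.

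Loss of Dnmt3b alone was next compared with wild type. In Dnmt3b_KO against J1, 122 regions rose (3.8%, where 10.8% of all features rose) and 345 fell (10.7%, where 10.1% of all features fell), by limma with adjusted p under 0.05. The regions' median difference was -0.219 against -0.098 for all features, and -0.243 and -0.202 within slides 1 and 2. With normexp background correction the split was 76 higher to 437 lower, a count of regions alone without the share of all features.

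The leading rises were modest. The 2 chromosome 4 regions that share sequence rose 4.84-fold (chr4:146965675-146979325_F) and 4.48-fold (chr4:146889650-146904300_F). On chromosome 12, chr12:117623500-117643575_R read -3.27 and -3.78 in J1, -1.25 and -1.43 in Dnmt3b_KO and -0.86 and -0.97 in PRDM14_DNMT3B. It rose 4.57-fold in Dnmt3b_KO (limma adjusted p = 0.00164), with J1 above background on 1 of its 2 arrays. On the X chromosome, chrX:120812236-121038407_R read -3.84 and -4.32 in J1 and -2.70 and -1.25 in Dnmt3b_KO. Its rise of 2.10 (limma adjusted p = 0.0349) was lost without Dnmt3b_KO replicate 2 (1.38, adjusted p = 0.0695), without J1 replicate 1 (adjusted p = 0.0791), without J1 replicate 2 (0.13), and without either array of PRDM14 (0.0707) or PRDM14_DNMT3B (0.0525). It was also lost with slide as a fixed block (0.07), with only the groups compared (0.114) and with no filter on dim probes (0.0683).

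Among the falls, chr15:98842850-98853100_F stood high in J1 alone, at 0.40 and 0.19, and read between -2.48 and -1.98 on the 8 arrays of all other groups. It fell 5.40-fold in Dnmt3b_KO, 6.62-fold in Dnmt1_KO and 6.85-fold in TKO (limma adjusted p = 0.000732, 0.000409 and 0.000415). Tuba1c, an alpha-tubulin gene 15377 bp away on the same strand, read 7.52 to 8.32 on all arrays and was called in none of these 3 comparisons, though it fell by 0.59 in PRDM14_DNMT3B (limma adjusted p = 0.00238). The short region chr18:82934418-82935002_F read -1.62 and -1.50 in J1 and was below background in Dnmt3b_KO, a fall of at least 6.61-fold (limma adjusted p = 0.00026), while Dnmt1_KO read -2.04 and TKO, which also lacks Dnmt3b, read -2.32. A fall of 5.40-fold was measured for chr10:24269165-24276690_R (limma adjusted p = 0.0108), with J1 at -2.38 and -1.37 and Dnmt3b_KO at -4.71 and -3.91. It was not past the threshold with only the groups compared (limma adjusted p = 0.0702).

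The 467 calls in Dnmt3b_KO depended on the arrays and on the model: 288 without J1 replicate 2, 245 without Dnmt3b_KO replicate 1, 227 without Dnmt3b_KO replicate 2, 860 with slide as a random block and 740 with the replicate number as a block. Fitted on these 2 groups alone, 186 were called. These alternatives are counts of regions alone, without the share of all features called under the same setting.

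For loss of Dnmt1 there was 1 array, which is assumed to vary like the other groups. In Dnmt1_KO against J1, 219 regions rose (6.8%, where 13.1% of all features rose) and 424 fell (13.1%, where 15% of all features fell), by limma with adjusted p under 0.05. The median difference was -0.211 against -0.145 for all features, and it was -0.351 within slide 1, where J1 replicate 1 lay. Of the 219 rises, 93 were of regions not above background in J1. In the fit to probes above background on all 10 arrays 112 rose and 438 fell, together 25.8% against 34.7% of all features. Scaling to the 75th percentile of the probes detected on all arrays instead shifted the median of all features to 0.011 and gave 241 higher and 258 lower, so the excess of falls depends on the scale. With slide as a random block 1058 regions were called. Both results are counts of regions alone, without the share of all features called under the same setting.

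The 4 leading rises were regions at or near background in J1. The first, chr14:77077374-77086910_F, read 1.95 in Dnmt1_KO and -1.96 in TKO, and was not above background in J1 (-5.13 and -4.62), a rise of at least 66.4-fold in Dnmt1_KO and at least 4.42-fold in TKO (limma adjusted p = 0.00025 and 0.00213). The other 3 were not above background in TKO. Of these, chr14:46374363-46612845_R read 1.18 and rose at least 38.8-fold (limma adjusted p = 0.00612). The region chr13:44752412-44803566_F read 0.83, at least 30.6-fold above J1, and entered the test through the Dnmt1_KO array alone, so this is a description. The fourth, chr4:106506151-106537682_F, read 0.34 against -3.82 and -5.41 in J1 (limma adjusted p = 0.00393). Its reverse strand, chr4:106506151-106537682_R, read -3.65 in Dnmt1_KO against -3.38 and -3.81 in J1 and was not called.

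Of the falls, chr14:105508625-105513462_R read 1.37 and 1.39 in J1, 0.16 and 0.34 in Dnmt3b_KO, -0.63 in Dnmt1_KO and -0.41 in TKO, and was close to J1 in PRDM14_DNMT3B (1.26 and 1.34). It fell 4.02-fold in Dnmt1_KO (limma adjusted p = 0.000481). Rbm26, an RNA-binding protein gene 487 bp away on the same strand, fell by 1.22 in Dnmt1_KO and by 0.74 in Dnmt3b_KO (limma adjusted p = 0.0013 and 0.00396), in the same order of groups. Falls of 4.0-fold and 3.72-fold were found for chr13:98281158-98285757_F and chr4:33375464-33377138_R (limma adjusted p = 0.000741 and 0.0342), and the second was not past the threshold without J1 replicate 1 (0.0745), without J1 replicate 2 (0.102) or without either PRDM14_DNMT3B array (0.0586), nor with slide as a fixed block (0.0502), with scaling over the probes detected on all arrays (0.0526) or with no filter on dim probes (0.0676).

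The TKO cells lack all 3 methyltransferases and also had 1 array. In TKO against J1, 230 regions rose (7.1%, where 13.9% of all features rose) and 390 fell (12.1%, where 14.5% of all features fell), by limma with adjusted p under 0.05. The median difference was -0.063, close to -0.068 for all features, and -0.205 within slide 1. Of the 230 rises, 86 were of regions not above background in J1. In the fit to probes above background on all 10 arrays 142 rose and 360 fell, together 23.6% against 34.2% of all features.

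Rises of at least 33.7-fold for chr5:53910499-53913968_R (0.97 in TKO), at least 16.7-fold for chr8:111766396-111772271_R (-0.04) and at least 16.0-fold for chr15:99762797-99786472_F (-0.10) were of regions below background on the other 9 arrays. These 3 entered the test through the TKO array alone, so their values are a description with no test. By contrast chr4:59306575-59317850_R was measured in most groups, at -3.93 to -2.43, and rose 18.2-fold in TKO to 0.61 (limma adjusted p = 0.00165). Its level in Dnmt1_KO was -3.23, within the range of J1. J1 was above background on 1 of its 2 arrays for this region, so the size of the rise is less certain.

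The leading fall in TKO was that of chr10:69844350-69844784_F, which also differed between the PRDM14 lines. It read 0.85 and 0.65 in J1, 0.96 and 1.08 in PRDM14, -1.13 and -0.98 in PRDM14_DNMT3B, -1.10 on both Dnmt3b_KO arrays, -1.07 in Dnmt1_KO and -2.48 in TKO. It fell 9.38-fold in TKO (limma adjusted p = 0.000242) and was lower in PRDM14_DNMT3B than in PRDM14 by a log2 difference of -2.07 (limma adjusted p = 0.00071). The other leading falls were chr2:128211990-128215223_R, on the Morrbid side, which fell 6.71-fold from 0.75 and 0.78 in J1 to -1.98 (limma adjusted p = 0.000538), and the chromosome 15 and chromosome 2 regions described above.

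The last comparison set the cells without Dnmt1 (Dnmt1_KO and TKO, averaged) against Dnmt3b_KO. Here 245 regions were higher (7.6%, where 11% of all features were) and 213 lower (6.6%, where 11.3% were), by limma with adjusted p under 0.05. The median difference of 0.094 was -0.01 within slide 1, and the split moved with the scale, to 300 higher and 141 lower with the percentile over probes detected on all arrays and to 231 higher and 273 lower with quantile normalization. Fewer regions were called without Dnmt3b_KO replicate 2. The alternative splits count regions alone, without the share of all features called under the same setting.

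The largest difference was that of chr1:52706748-52712402_R, at least 46.5-fold higher without Dnmt1 (limma adjusted p = 5.51e-05), followed by chrX:123306246-123307974_F, at least 16.8-fold higher (limma adjusted p = 0.00134). The region chr14:77077374-77086910_F was 14.1-fold and chr5:104936417-104984892_R 12.5-fold higher (limma adjusted p = 0.000609 and 0.00134). The log2 difference of the first, 3.82, was 1.87 without Dnmt1_KO (limma adjusted p = 0.0124) and 5.78 without TKO. The region chr5:104936417-104984892_R read 0.55 in Dnmt1_KO and -0.47 in TKO against -3.76 to -2.50 on the other 8 arrays. It spans the probe of Thoc2l on the opposite strand, which fell by 0.66 in Dnmt1_KO and by 1.09 in TKO against J1 (limma adjusted p = 0.00802 and 0.00154).

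Of the regions lower without Dnmt1, chr12:82457625-82476325_R read -3.07 in Dnmt1_KO and -3.67 in TKO against -1.51 and -1.27 in Dnmt3b_KO (limma adjusted p = 0.00715). For chr11:68200716-68214458_R the fall was at least 3.45-fold (limma adjusted p = 0.00373). The differences of chrX:120812236-121038407_R and chr12:111617728-111665403_R (limma adjusted p = 0.00997 and 0.029) were not past the threshold without the TKO array, at -1.83 (0.0997) and -1.02 (0.309), nor with slide as a fixed block (0.0565 and 0.089). The call of the second was also lost without either array of PRDM14 (0.0613), of PRDM14_DNMT3B (0.0541) or of Dnmt3b_KO (0.0871 and 0.128), with no filter on dim probes (0.0568) and with normexp (-0.41, adjusted p = 0.126). Without Dnmt1_KO it read -3.28.

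A pair of regions detected in Dnmt1_KO and TKO and on no other array were noted after their values were seen. They were chr4:13536908-13593316_R, at -1.87 in Dnmt1_KO and -1.11 in TKO, and chr15:3230734-3251196_R, at -1.49 and -2.30, next to Ccdc152, a coiled-coil protein gene. Against J1 the first was at least 4.69-fold and at least 7.95-fold higher, and the second at least 6.09-fold and at least 3.49-fold. The Dnmt1_KO and TKO arrays alone brought both into the test, so these folds are a description.

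Few regions were above background on all arrays of 1 group and on no array of any other: 3 in J1, 41 in PRDM14, 5 in PRDM14_DNMT3B, 3 in Dnmt3b_KO, 65 in Dnmt1_KO and 54 in TKO. The counts for Dnmt1_KO and TKO rest on a single array each. The leading regions of those were chr1:167797581-167803031_F, at 0.13 in Dnmt1_KO and -5.50 or lower elsewhere, and chr5:53910499-53913968_R in TKO. The 3 leading PRDM14 regions read -4.15 to -3.01 on the PRDM14 arrays, and the 3 of J1 read -3.89 to -1.57 on the J1 arrays. Detection chose these regions, so their values are a description.

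Both strands were members for 694 intervals. In PRDM14 against J1, 311 of these had a strand called, and in 69 both were called, 51 in the same direction and 18 in opposite directions. In the other 6 comparisons both strands were called for 17 to 66 intervals, with 1 to 13 of them opposite. Of all regions, 14.2% rose and 12.5% fell in PRDM14, so calls unrelated to strand would mostly fall on 1 strand too. The counts are therefore no result about strands. Intervals whose strands read differently are given next as descriptions. The interval chr1:167797581-167803031 beside Pou2f1, an octamer-binding factor, is an example: chr1:167797581-167803031_F was at least 18.8-fold higher in Dnmt1_KO than in J1, a description only since that array alone brought it into the test, while chr1:167797581-167803031_R read between 0.13 and 1.16 on all 10 arrays and was called in no comparison. Likewise chr16:9249688-9275013_R was above background in Dnmt1_KO alone (-0.48), whereas chr16:9249688-9275013_F read -2.85 to -1.89 everywhere. The F strand of chr13:53100475-53113850 was bright on 1 of 2 Dnmt3b_KO arrays (-1.14 against -6.39) and in Dnmt1_KO (0.14), and was not called.

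Probes of one region often went the same way. Of regions called in a comparison that had 2 or more probes, 77.3% to 84.5% had all their probes changed in the direction of the tested probe. In PRDM14 against J1 this held for 503 of 614, while in 45 the probes that did so were no more than those that did not. The tested probe is 1 of those counted.

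Named genes near a called region were called in the same direction in a minority of cases. Within 50 kb, 598 regions called in PRDM14 against J1 had a named gene. The nearest one was called in the same direction for 220 of them (36.8%) and in the opposite direction for 70 (11.7%). Of the 1591 regions that were not called, 41.9% had a nearest gene called in either direction, a wider count than the 36.8%. With the gene on the region's strand, 40.3% of called regions had it called in the same direction and 11.7% in the opposite direction. With the gene on the other strand the shares were 30.8% and 11.8%. For regions not called, the shares in either direction were 40.7% and 43.2% on those strands. In Dnmt3b_KO against J1, the shares for called regions were 22.9% and 4.9% on the same strand, and 10.2% and 6.1% on the other. For regions not called there, the shares in either direction were 20.6% and 20.7%. Region and gene share their arrays and scaling. Regions that overlap or lie close together can share a nearest gene, so they are not independent.

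The region 3729 bp from the Prdm14 probe, chr1:13058312-13099826_R, chosen after its values were seen, read -2.38 and -3.08 in J1, and was not above background in PRDM14 or PRDM14_DNMT3B. It read -1.65 and -1.86 in Dnmt3b_KO. The fall was at least 3.60-fold in PRDM14 and at least 2.52-fold in PRDM14_DNMT3B, and the rise in Dnmt3b_KO 0.98 (limma adjusted p = 0.000565, 0.000186 and 0.0361). The Prdm14 probe itself fell by 4.18 in PRDM14, fell at least 16.9-fold in PRDM14_DNMT3B and rose by 1.16 in Dnmt3b_KO (limma adjusted p = 2.57e-05, 2.45e-05 and 0.00332), the same directions as the region.

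**Figure D3:**
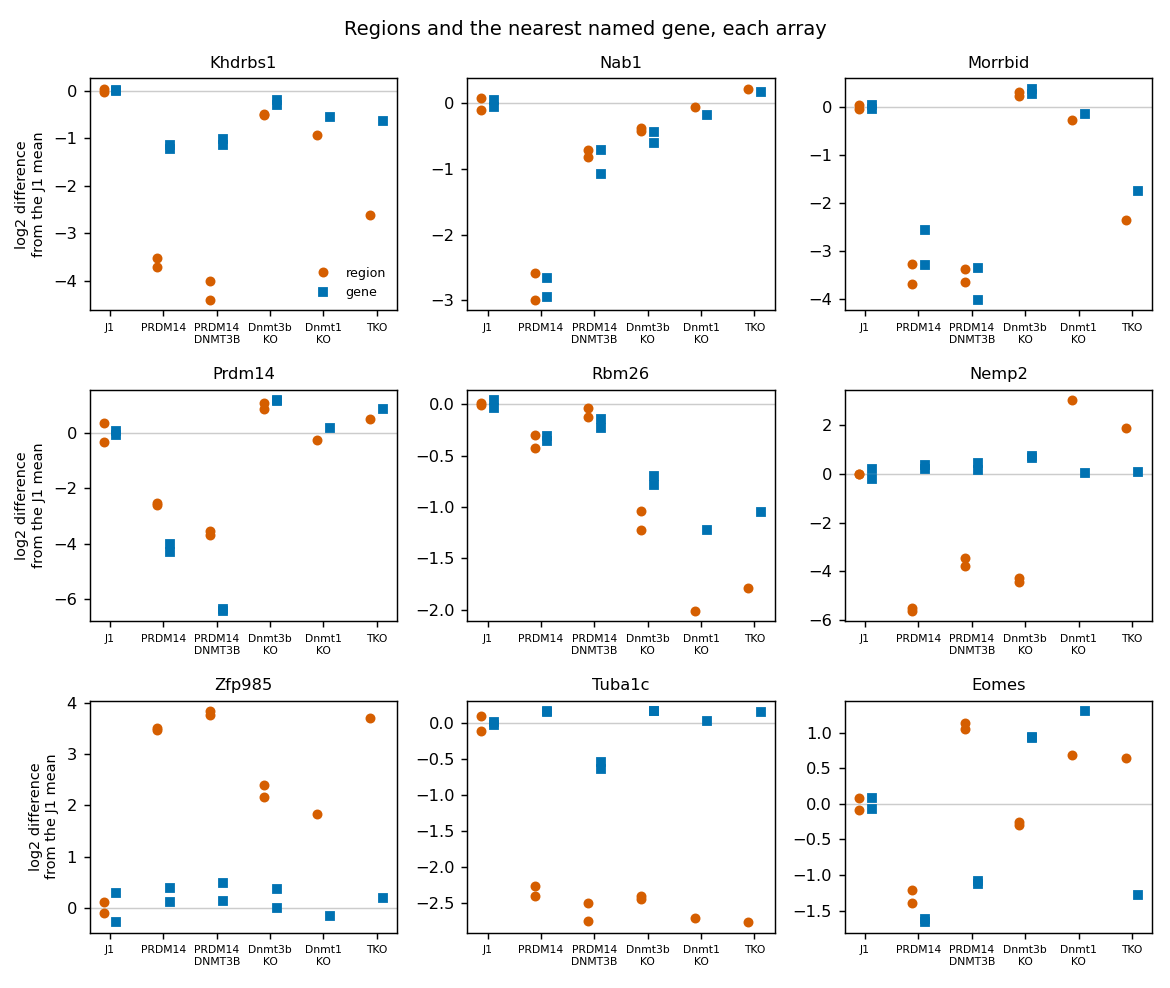
Difference from the J1 mean (log2) of a region (orange circles) and of its nearest named gene (blue squares) on each of 10 arrays, 1 panel for each gene. The region and the gene both fell in PRDM14 beside Nab1, whereas beside Nemp2 the region fell in PRDM14 and the gene was not called. Points include arrays below background, where the size of a difference is not measured.

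Regions lay close together: 480 clusters of 3 or more regions within 50 kb of each other held 1933 of the regions, and 560 regions had no other that near. The largest clusters, of 14 regions each, were on chromosomes 12 and 1, and clusters of 12 were on chromosomes 8 and 18.

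The chromosome 12 cluster, from 110842149 to 110988678, lies downstream of the probe of Meg3 and spans that of Mirg. These are noncoding RNAs of the imprinted Dlk1-Dio3 domain, which are expressed from the maternal copy and host many small RNAs. The cluster's 14 regions cover 10 sets of coordinates, some of which overlap, so they are not independent readings. Of the 14, 9 fell in PRDM14 (median difference -1.14) and 11 fell in PRDM14_DNMT3B (median -1.81), and none rose. Of all features, 18.8% and 19.7% fell there. In TKO 9 of 14 rose (median 1.27), in Dnmt1_KO 3 (median 0.67) and in Dnmt3b_KO none (median 0.15), with no fall called in these. Among all features, 13.9%, 13.1% and 10.8% rose in those groups. These counts are by limma with adjusted p under 0.05.

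One of them, chr12:110842154-110883594_F, read 2.80 and 2.64 in J1, 1.5 on both PRDM14 arrays, 0.80 and 0.70 in PRDM14_DNMT3B, 2.78 and 2.67 in Dnmt3b_KO, 3.36 in Dnmt1_KO and 3.75 in TKO. Dnmt3b_KO overlapped J1 and every other group was separate. The difference from J1 was -1.22 ± 0.10 in PRDM14, -1.97 ± 0.10 in PRDM14_DNMT3B, 0.64 ± 0.12 in Dnmt1_KO and 1.03 ± 0.12 in TKO (SE, limma adjusted p = 0.000358, 8.84e-05, 0.0139 and 0.00285). PRDM14_DNMT3B was below PRDM14 by a log2 difference of -0.75 (limma adjusted p = 0.00587). On the opposite strand, chr12:110870903-110891628_R fell by 1.08 in PRDM14 and by 1.92 in PRDM14_DNMT3B and rose by 1.31 in TKO (limma adjusted p = 0.0163, 0.00193 and 0.0238). Its PRDM14 call was lost without J1 replicate 1 (0.0707) or PRDM14 replicate 1 (0.0788) or 2 (0.0707), and its TKO call without J1 replicate 1 (0.0552) or 2 (0.0796) or either PRDM14 array (0.051). The opposite-strand regions chr12:110896603-110940553_R and chr12:110944403-110988678_R were called in neither PRDM14 nor TKO.

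Meg3 and Mirg moved in the cluster's direction in both PRDM14 lines and in TKO. Dio3, a gene of the same domain, did not: it rose by 2.03 in PRDM14 (limma adjusted p = 0.00038), and its difference in TKO was -0.04. Meg3 fell by 1.73 in PRDM14 and by 2.18 in PRDM14_DNMT3B and rose by 0.88 in TKO (limma adjusted p = 0.00143, 0.000625 and 0.0463), and Mirg fell by 1.40 and 1.49 and rose by 1.86 (limma adjusted p = 0.000193, 0.000162 and 0.00048). Mirg also rose by 0.76 in Dnmt3b_KO and by 1.10 in Dnmt1_KO (limma adjusted p = 0.00456 and 0.00213). Regions called in no comparison included chr12:110896603-110940553_R, which read -3.48 to -2.47 over all arrays, and chr12:110967974-110969051_F, which read -3.09 to -1.95.

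**Figure D4:**
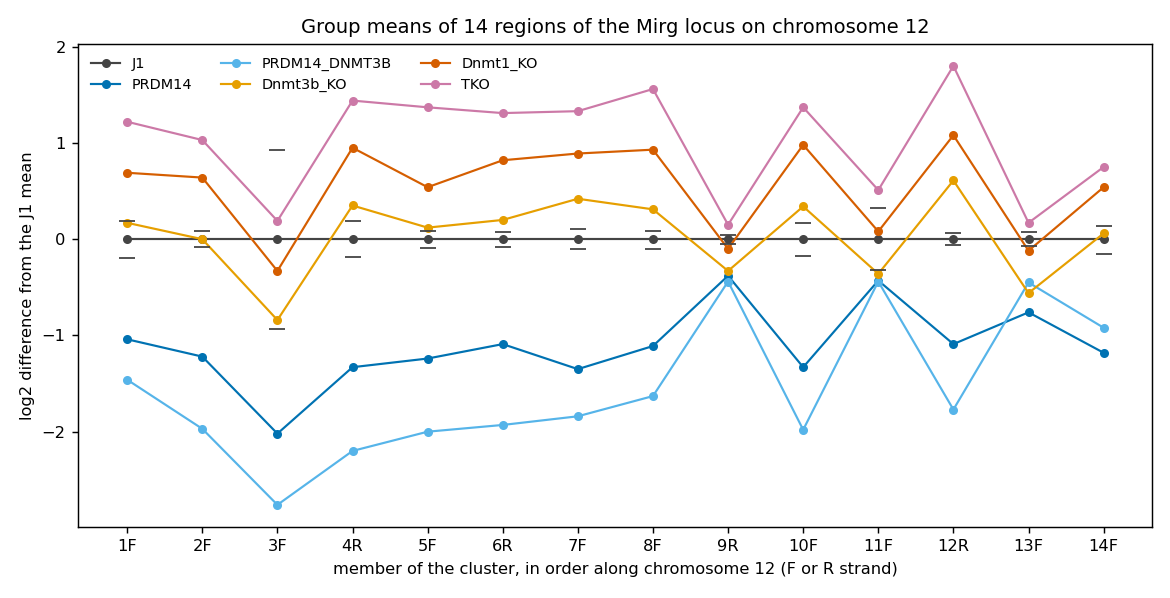
Group mean of each of 14 regions of the chromosome 12 cluster as a log2 difference from the J1 mean, in order along the chromosome, 1 line a group, with dashes for the 2 J1 arrays. Both PRDM14 lines lie below J1 at every region, with medians of -1.14 and -1.81, and TKO lies above it with a median of 1.27.

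The count for TKO was 6 without J1 replicate 1, 3 without J1 replicate 2 and 5 without either PRDM14 array. That for PRDM14 was 6 without either PRDM14 array, and the TKO call of Meg3 was lost without J1 replicate 1 (0.053), without J1 replicate 2 (0.137) and without either array of PRDM14 (0.0779) or Dnmt3b_KO (0.0747), with no filter on dim probes (0.0913) and in the authors' value table (0.0501).

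In the chromosome 8 cluster, from 19678750 to 20038750, 10 of 12 regions rose in PRDM14 (median 1.22) and 7 in PRDM14_DNMT3B (median 0.78), and none fell. Of all features, 20.8% and 19.5% rose there. In Dnmt3b_KO none was called, and in TKO 3 rose, where 13.9% of all features did. All 12 regions lie within the interval of the longest, and probes of 2 of them share 24 bases, so they are not independent readings. Over all 215 regions of chromosome 8 the median difference was 0.10 in PRDM14 (57 rose and 19 fell) and 0.03 in PRDM14_DNMT3B (45 and 16), against -0.09 and -0.14 on the other chromosomes, and the part of this in the cluster's result was not tested. One of them, chr8:19792940-19798868_F, read 5.25 and 5.34 in J1, 6.51 and 6.53 in PRDM14, 5.81 and 5.99 in PRDM14_DNMT3B and 5.08 to 5.52 in the knockouts. It rose by 1.22 ± 0.10 in PRDM14 (SE, limma adjusted p = 0.000416). A gene of the locus, 6820431F20Rik, rose by 1.19 (limma adjusted p = 0.000285), while 2610005L07Rik, whose probe lies inside the longest region, read 1.85 to 2.51 on all arrays and was not called.

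The chromosome 1 cluster beside Zfp281, a zinc finger regulator of pluripotency, did not move together. In PRDM14, where 20.8% of all features rose and 18.8% fell, 2 of its 14 regions rose and 5 fell. In PRDM14_DNMT3B, where 19.5% rose and 19.7% fell, 1 rose and 5 fell. The one that rose in all 5 comparisons with J1 was chr1:138592780-138622719_F, by 1.88 in Dnmt3b_KO and by 0.51 in TKO (limma adjusted p = 0.000982 and 0.0484). Of the 12 regions of the chromosome 18 cluster, beside Ube2d2a, 1 rose and 2 fell in PRDM14.

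Long noncoding RNAs that carry names were also read by gene probes. Of 50 symbols in a list of imprinted, X-inactivation, snoRNA host and developmental noncoding RNAs, chosen with earlier results of these data known, 26 were tested. Against J1, 5 rose and 9 fell in PRDM14, where 20.8% of all features rose and 18.8% fell, and 6 rose and 10 fell in PRDM14_DNMT3B, where 19.5% and 19.7% did. The numbers that rose and fell were 3 and 9 for Dnmt3b_KO (10.8% and 10.1% of all features), 3 and 8 for Dnmt1_KO (13.1% and 15%), and 6 and 9 for TKO (13.9% and 14.5%). Median differences of the list against J1 ranged from -0.45 in Dnmt1_KO to -0.11 in PRDM14_DNMT3B.

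H19, an imprinted growth-limiting RNA of the maternal chromosome, was low in J1 and highest in Dnmt1_KO. It read -2.57 and -2.14 in J1, 1.25 and 1.08 in PRDM14, 0.03 and -0.04 in PRDM14_DNMT3B, -1.78 and -1.93 in Dnmt3b_KO, 6.87 in Dnmt1_KO and 5.53 in TKO. It rose by 3.52 in PRDM14, 2.35 in PRDM14_DNMT3B, 9.23 in Dnmt1_KO and 7.88 in TKO (limma adjusted p = 6.92e-05, 0.000233, 0.000117 and 0.000143). Peg13, an imprinted RNA of the paternal chromosome, was low in J1 (-4.19 and -6.16, above background on 1 array) and read -0.99 to 0.13 on the other 8 arrays. Mir17hg, the host transcript of a growth-promoting microRNA cluster, was lower than J1 in all 5 groups, by 1.56 to 2.56 as a fall on the log2 scale.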

How the data were processed

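Per the file headers, the arrays were one-colour Agilent 60-mer arrays read with Agilent Feature Extraction 10.7.3.1, which made the deposited intensity values (background-corrected signal per spot) and the flags for spots above background. The authors' deposited value table holds log2 values, and the steps behind it are not stated in the labels. It was used as an alternative only.

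Log2 intensity minus each array's 75th percentile was analysed. Outlier spots were set missing, spots of a probe averaged, and 33100 probes above background on all arrays of at least 1 group kept. The brightest probe of each name gave 23799 features. limma 3.58.1 in R 4.3.3 was fitted over all 10 arrays without covariates (4 residual degrees of freedom), with Benjamini-Hochberg adjustment over all features, and tested on simulated data. Where a group was not above background, a fold is a lower bound: the bright group's mean against the higher, on each array, of the lowest signal called above background and the probe's own signal.

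Named regions were, for each comparison, up to 4 with the largest rise and 4 with the largest fall among called regions whose arrays did not overlap, up to 3 regions detected in 1 group only, 6 strand pairs, the 3 largest clusters, the nearest genes and a list of long noncoding RNAs. Exceptions are named as chosen after their values were seen. The regions, rules and lists were chosen with earlier results of these data known. Alternatives covered background correction, scaling, filter, probe choice, slide and replicate blocks, the arrays fitted and each array left out. The single array of Dnmt1_KO and that of TKO could not be left out of their comparisons with J1.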

Additional observations from a re-analysis of the deposited data

How the results depend on the processing

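The number of regions called depended on the setting mainly in Dnmt3b_KO against J1, where 467 became 276 with no filter on dim probes, 186 with only the 2 groups fitted, 740 with the replicate number as a block and 860 with slide as a random block. With no filter, Dnmt1_KO against J1 gave 389, PRDM14_DNMT3B against PRDM14 326 and Dnmt1_KO and TKO against Dnmt3b_KO 289, and with slide as a random block Dnmt1_KO against J1 gave 1058. These counts, and those below with an array left out, are of regions alone, without the share of all features called under the same setting. The cause was not tested. Within 10 kb instead of 50 kb, the nearest gene was called in the same direction for 41.1% of called regions in PRDM14 and 23.8% in Dnmt3b_KO.

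Leaving out each array in turn gave 535 to 861 regions for PRDM14, 649 to 847 for PRDM14_DNMT3B, 227 to 467 for Dnmt3b_KO, 462 to 643 for Dnmt1_KO and 478 to 620 for TKO against J1. It gave 207 to 496 for PRDM14_DNMT3B against PRDM14 and 289 to 454 for Dnmt1_KO and TKO against Dnmt3b_KO.

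Of 56 differences of the leading regions, 48 were past the threshold under every alternative run. Those 56 were picked as the largest called differences in these same data, so the count is no independent check. Some are of regions that entered the test through 1 group alone. No alternative here or in the ranges above left out the single Dnmt1_KO or TKO array from its comparison with J1. In TKO against J1, chr12:110845020-110850870_F, which was not called, read 0 with normexp and ranged from -0.74 without J1 replicate 1 to 1.12 without J1 replicate 2. With slide as a fixed block chr12:110896603-110940553_R and chr12:110967974-110969051_F read -0.06 each, also not called. Replicates of the same number correlated at 0.26 to 0.507 in their deviations from group means, over 6 pairs of groups. By the array headers, same-numbered arrays of J1, PRDM14_DNMT3B and Dnmt3b_KO shared a slide and a scan day, and those of PRDM14 shared neither. The fit reported has no block for either. The counts of regions that follow stand without the share of all features called under the same setting. With slide as a fixed block over slides 1 and 2, 1007 regions were called in PRDM14_DNMT3B, 640 in Dnmt3b_KO, 905 in Dnmt1_KO and 706 in TKO against J1, and 410 in Dnmt1_KO and TKO against Dnmt3b_KO.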
